A study of Homo sapiens with 4 samples.

Results

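Formins are the actin nucleators that build long, unbranched filaments. The 10 formin genes described here are DIAPH1, DIAPH2, DIAPH3, FMNL1, FMNL2, FMNL3, DAAM1, FHOD1, FHOD3 and INF2. They were taken by name from the 58825 gene rows of each count file, and all 10 were found. Among the 13801 genes with enough counts to be tested, all 10 formins were present. FHOD3 entered only through its MET-KO libraries, where it was high.

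A formin dimer holds the growing end of a filament with its FH2 domains and feeds it with actin bound to profilin through its FH1 domains. Most diaphanous-type formins are folded shut until an activating partner binds them. In epithelial cells formins supply stress fibres, filopodia, cell junctions and the fibres that cross over the nucleus, and FHOD1 and INF2 are known to act on actin around the nucleus.

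The samples were LoVo cells, an established line from a colon adenocarcinoma that carries an uncleaved, constitutively active MET receptor. MET+ cells were of the wild-type genotype and are described in the labels as GFP controls. MET-KO cells had their MET gene knocked out with CRISPR/Cas9, and single clones were picked for it. Each group had 2 biological replicates, grown in the same serum-containing medium, and RNA was sequenced from the 3′ end of transcripts (QuantSeq). No source used here tells if the MET-KO replicates share 1 clone, so a trait of a clone cannot be told apart from an effect of the knockout. The comparison asks how the formin transcripts differ between cells with an active MET receptor and cells without MET.

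The libraries held between 8429142 and 10286552 counts. Levels are in CPM, which sets each gene's counts against the library's total, here adjusted by TMM factors. A 3′ library yields about 1 fragment per transcript, so CPM is not divided by gene length. Comparisons of levels between genes are approximate, since reads in overlapping genes could not be told apart. A count of 0 allows a level of up to 3 counts, which is 0.276 to 0.363 CPM by library. MET itself had 338 and 336 CPM in the MET+ libraries and 84.4 and 88.9 CPM in the MET-KO libraries. The reads come from the end of the transcript, so they measure MET mRNA and cannot check the edit itself. In a check of sex-linked genes, 2 of the 4 libraries were unlike the other 2. That split follows the groups and cannot be told apart from the condition. Of 9 tested markers of colorectal epithelium, 2 were called higher and 6 lower in MET-KO cells, against 27.2% and 26.9% of all tested genes. The summed level of the epithelial markers was 9654 and 9688 CPM in MET+ against 8321 and 7337 CPM in MET-KO cells. Markers with many counts went both ways. EPCAM, CDH1, KRT18 and KRT19 were called lower, with log2 fold changes (MET-KO over MET+) of -1.11, -0.88, -0.30 and -0.29. CDX2 was called higher, with a log2 fold change of 1.04, and KRT8 was not called. CDX1 had 0 counts in every library, KRT20 had 0 in both MET+ libraries, and VIL1 and LGALS4 had at most 3 counts in each MET-KO library. Summed markers of fibroblasts (6 genes) were at 2.18 and 1.64 CPM in MET+ against 3.63 and 4.24 CPM in MET-KO libraries, with COL3A1 called higher at 4 and 5 against 24 and 26 counts. Summed markers of leucocytes (5 genes) were at 5.92 and 9.75 CPM against 0.882 and 0.829 CPM, with LYZ called lower at 38 and 79 against 3 and 1 counts. KRT20 and COL3A1 entered the test only through their MET-KO libraries, and VIL1, LGALS4 and LYZ only through their MET+ libraries. Each was high in the group that let it in, so its call gives little support. COL1A1 and CD68 had counts in every library and were not called. Markers of endothelium (3 genes) summed to 0.924 CPM or less. The part of other cells in the results was not tested. COL1A2, DCN, PTPRC, CD3E, MS4A1 and CDH5, which also stand for those cell types, were at 0 counts in all libraries. All 4 libraries came from cultures of the LoVo line, so a marker count does not by itself show the presence of another cell type. In bulk RNA, fewer cells of a type and less RNA per cell cannot be told apart.

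FMNL2 had the largest gain in CPM among the formins, DIAPH2 had the largest fall in folds, and the leading formin transcript differed between the groups. Genes were called by the quasi-likelihood test of edgeR, with p-values adjusted by the method of Benjamini and Hochberg (BH) over all tested genes and a limit of 0.05. By this rule 8 of the 10 formins were called, against 54.1% of all tested genes. FMNL2, FHOD3 and FMNL1 were called higher in MET-KO cells, where 27.2% of tested genes were. FHOD3 was let into the test by the group where it was high, so its call gives little support. DIAPH1, DIAPH2, FMNL3, DAAM1 and INF2 were called lower, where 26.9% of tested genes were. With a change of at least 1 on the log2 scale also required, 5 formins were left (FMNL2, FHOD3, DIAPH2, FMNL3 and INF2), against 24.3% of tested genes. The 2 groups of libraries did not overlap in any of the 10 formins, nor in 75.6% of tested genes. The median log2 fold change of the 10 formins, MET-KO over MET+, was -0.46, against 0.01 for all tested genes. For any single gene, the smallest p of an exact two-sided permutation test over these 4 libraries is 0.33, so the calls depend on a spread shared across genes by edgeR.

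**Figure D1:**
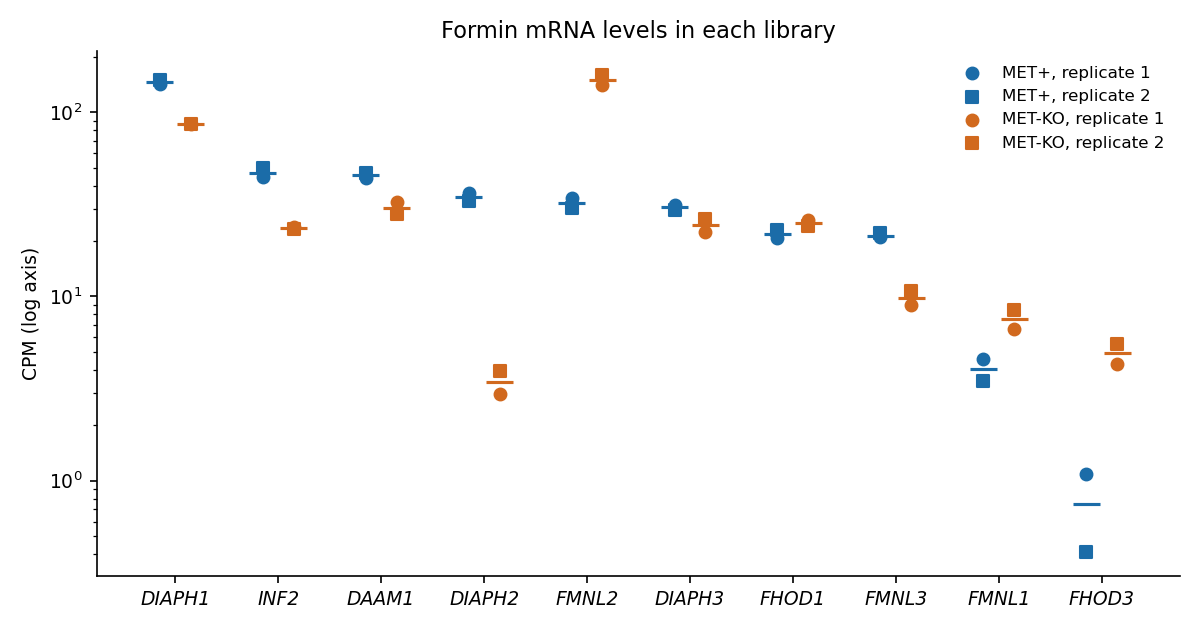
Level of each formin in CPM (log axis) in the 2 MET+ libraries (blue) and the 2 MET-KO libraries (orange), with circles for replicate 1, squares for replicate 2 and a bar at each group mean. FMNL2 moved from 30.2 and 34.2 CPM to 139.7 and 160.0 CPM, and DIAPH2 moved from 32.8 and 36.3 CPM to 2.94 and 3.96 CPM. The groups did not overlap in any formin, nor in 75.6% of all tested genes.

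The order of the levels changed between the groups. In MET+ cells DIAPH1 was highest at 146 CPM, followed by INF2 and DAAM1, whose library values overlapped. DIAPH2, FMNL2 and DIAPH3 came next and overlapped from one to the next, as did FHOD1 and FMNL3. FMNL1 and FHOD3 were the lowest and stood apart. In MET-KO cells FMNL2 was highest at 149.9 CPM, DIAPH1 was next at 86.7 CPM and DAAM1 followed at 30.2 CPM, each clear of the next. FHOD1, DIAPH3 and INF2 overlapped from one to the next. FMNL3, FMNL1 and FHOD3 followed without overlap, and DIAPH2 was lowest at 3.45 CPM.

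Of the 3 diaphanous formins, DIAPH1 builds stress fibres and also stabilises microtubules. DIAPH1 (ENSG00000131504, GRCh38 chromosome 5, 141515016 to 141619055, minus strand) had 143 and 149.7 CPM in the MET+ libraries and 86.6 and 86.7 CPM in the MET-KO libraries. Both MET-KO values were lower and nearly equal to each other. DIAPH1 fell 1.69-fold, a log2 fold change of -0.75 (SE 0.10, edgeR quasi-likelihood test, BH-adjusted p = 3.75e-08).

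DIAPH2, which is linked to endosome movement and to the attachment of chromosomes to the spindle, had the largest decrease in folds. DIAPH2 (ENSG00000147202, chromosome X, 96684663 to 97604997, plus strand) had 300 and 320 counts in MET+ against 30 and 43 in MET-KO libraries. Scaled, this was 36.3 and 32.8 CPM against 2.94 and 3.96 CPM. The transcript was still present in both MET-KO libraries, well above the limit of 3 counts. DIAPH2 was 9.93-fold lower in MET-KO cells, a log2 fold change of -3.31 (SE 0.20, edgeR quasi-likelihood test, BH-adjusted p = 5.65e-16). Of all tested genes, 94.4% had a smaller absolute change. DIAPH1 gave 3.93 and 4.56 counts per DIAPH2 count in MET+ libraries, against 29.4 and 21.9 in MET-KO.

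DIAPH3, which shapes filopodia and the contractile ring, was the only diaphanous formin without a call. DIAPH3 (ENSG00000139734, chromosome 13, 59665583 to 60163987, minus strand) had 31.5 and 29.6 CPM in the MET+ libraries and 22.3 and 26.4 CPM in the MET-KO libraries. Both MET-KO values lay below both MET+ values. The log2 fold change was -0.32 (SE 0.14, edgeR quasi-likelihood test, BH-adjusted p = 0.0507), with a 95% interval of the fit, not adjusted for the number of genes, from -0.61 to -0.04. Without MET-KO replicate 2 the same test called it lower, with a log2 fold change of -0.45 and an adjusted p of 0.0371, while the other alternatives gave adjusted p-values between 0.0512 and 0.357. DIAPH3 and DIAPH2 had similar counts in MET+ cells, with 0.870 and 0.900 DIAPH3 counts per DIAPH2 count. In the MET-KO libraries that ratio was 7.57 and 6.67.

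The formin-like genes FMNL1, FMNL2 and FMNL3 moved in both directions. FMNL2, an effector of CDC42 that works at the tips of lamellipodia and at new cell junctions, had the largest gain in counts. FMNL2 (ENSG00000157827, chromosome 2, 152335237 to 152649834, plus strand) had 283 and 294 counts in MET+ against 1425 and 1738 in MET-KO libraries. Scaled, this was 34.2 and 30.2 CPM against 139.7 and 160.0 CPM. The lowest MET-KO value was far above the highest MET+ value. FMNL2 rose 4.67-fold, a log2 fold change of 2.22 (SE 0.11, edgeR quasi-likelihood test, BH-adjusted p = 4.38e-18). Of all tested genes, 90.8% had a smaller absolute change.

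FMNL3, a close relative of FMNL2 that builds filopodia, fell in the same libraries. FMNL3 (ENSG00000161791, chromosome 12, 49636499 to 49708165, minus strand) had 20.9 and 22.0 CPM in the MET+ libraries and 9.02 and 10.7 CPM in the MET-KO libraries. Both MET-KO values lay clearly below both MET+ values. FMNL3 was 2.17-fold lower, a log2 fold change of -1.12 (SE 0.18, edgeR quasi-likelihood test, BH-adjusted p = 2.66e-06). In the MET+ libraries there were 1.64 and 1.37 FMNL2 counts per FMNL3 count, and in the MET-KO libraries 15.5 and 15.0. The last 500 annotated bases of FMNL3 overlap PRPF40B on the other strand, which had 60 and 106 counts in MET+ and 97 and 112 in MET-KO libraries. The strand setting of the counting is not given in the sources used here, so reads in such overlaps cannot be told apart.

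FMNL1 is known mainly from blood cells, where it acts in adhesion and phagocytosis. FMNL1 (ENSG00000184922, chromosome 17, 45221444 to 45247320, plus strand) had only 38 and 34 counts in MET+ against 68 and 92 in MET-KO libraries. Scaled, this was 4.59 and 3.49 CPM against 6.67 and 8.47 CPM. FMNL1 was called 1.89-fold higher, a log2 fold change of 0.92 (SE 0.29, edgeR quasi-likelihood test, BH-adjusted p = 0.00717). This call was the least stable of the 8. It was lost with DESeq2's Wald test (adjusted p = 0.0953), without MET+ replicate 2 (edgeR adjusted p = 0.0558) and without MET-KO replicate 2 (edgeR adjusted p = 0.128), and over all its alternatives the adjusted p lay between 0.00201 and 0.128. FMNL1 shares exon positions with 3 genes of the other strand, and its last 500 bases overlap 1 of them, AC008105.2, which had 5 and 10 counts in MET+ and 14 and 13 in MET-KO libraries. Another, AC008105.1, had 4 and 6 against 25 and 42 counts.

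DAAM1 links Wnt signalling through Dishevelled to actin assembly. DAAM1 (ENSG00000100592, chromosome 14, 59188646 to 59371405, plus strand) had 44.1 and 46.9 CPM in the MET+ libraries and 32.5 and 27.9 CPM in the MET-KO libraries, with both MET-KO values lower. The decrease was 1.51-fold, a log2 fold change of -0.59 (SE 0.12, edgeR quasi-likelihood test, BH-adjusted p = 0.000135). DAAM1 overlaps no other annotated gene.

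The formins that act near the nucleus did not move together. FHOD1 bundles actin and binds the giant nesprin encoded by SYNE2, which joins perinuclear fibres to the nuclear envelope. FHOD1 (ENSG00000135723, chromosome 16, 67229387 to 67247658, minus strand) had 20.8 and 23.0 CPM in the MET+ libraries and 26.0 and 24.1 CPM in the MET-KO libraries. The MET-KO values were slightly higher, and the log2 fold change of 0.19 (SE 0.15) did not pass (edgeR quasi-likelihood test, BH-adjusted p = 0.281). The 95% interval of the fit ran from -0.11 to 0.49, so the data do not show that FHOD1 was equal in the groups.

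INF2 severs filaments as well as building them, and one isoform sits on the endoplasmic reticulum next to the nucleus. INF2 (ENSG00000203485, chromosome 14, 104689606 to 104722535, plus strand) had 44.3 and 49.6 CPM in the MET+ libraries and 23.7 and 23.1 CPM in the MET-KO libraries. Both MET-KO values were clearly lower. INF2 was 2.01-fold lower, a log2 fold change of -1.01 (SE 0.13, edgeR quasi-likelihood test, BH-adjusted p = 3.68e-08). The annotation gives INF2 4 coding 3′ ends, and gene counts sum over them, so the isoforms were not separated. INF2 gave 2.13 and 2.16 counts per FHOD1 count in MET+ libraries, against 0.913 and 0.958 in MET-KO. FHOD1 was the lower of the pair in MET+ cells and slightly the higher in MET-KO cells.

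FHOD3 is known for the assembly of sarcomeres in heart muscle. FHOD3 (ENSG00000134775, chromosome 18, 36297714 to 36780055, plus strand) had 9 and 4 counts in MET+ against 44 and 60 in MET-KO libraries. Scaled, this was 1.09 and 0.411 CPM against 4.31 and 5.53 CPM, so FHOD3 stayed a minor formin in both groups. The log2 fold change was 2.74 (SE 0.47, edgeR quasi-likelihood test, BH-adjusted p = 7.44e-06). Since FHOD3 entered the test only through the MET-KO libraries, where it was high, this call gives little support. With so few MET+ counts the size was uncertain, and the log2 fold change was 3.55 without MET+ replicate 1 and 2.16 without MET+ replicate 2. The last 500 bases of FHOD3 overlap TPGS2 on the other strand, which had 319 and 403 counts in MET+ and 548 and 624 in MET-KO libraries.

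Of the other 4 human formin genes, 1 had enough counts to be tested, and, like FHOD3, it entered through its MET-KO libraries. This gene, FMN1, which acts at cell junctions, had 4 and 22 counts in MET+ against 45 and 67 in MET-KO libraries. Its log2 fold change was 1.89 (SE 0.43, edgeR quasi-likelihood test, BH-adjusted p = 0.000365), and its MET+ values of 0.483 and 2.26 CPM were far from each other. As with FHOD3, the call of FMN1 gives little support. In MET-KO cells FMN1 reached 5.29 ± 1.24 CPM (SD, n = 2), beside 4.92 CPM for FHOD3 and 3.45 CPM for DIAPH2. FMN2 had 2 counts in MET-KO replicate 1 and 0 in the other libraries. DAAM2 and GRID2IP had 0 counts in every library.

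The sum over the 10 formins differed little between the groups while its make-up changed. The summed level was 380.4 and 388 CPM in the MET+ libraries and 354 and 377 CPM in the MET-KO libraries. Leaving out FMNL2, the sum was 346 and 357 CPM against 214 and 217 CPM. A share of the summed formin counts does not depend on how libraries are scaled, and each share is given with a 95% Wilson interval that covers counting error only. FMNL2 held 8.99% (8.04% to 10.0%) and 7.79% (6.97% to 8.68%) of formin counts in the MET+ libraries. In the MET-KO libraries it held 39.5% (37.9% to 41.1%) and 42.5% (40.9% to 44.0%). DIAPH1 went the other way, from 37.5% (35.8% to 39.2%) and 38.6% (37.1% to 40.2%) to 24.5% (23.1% to 25.9%) and 23.0% (21.7% to 24.3%). For both genes the intervals of the groups were far apart. The DIAPH genes together went from 55.3% and 54.7% of formin counts to 31.6% and 31.1%, and the FMNL genes together went from 15.7% and 14.4% to 43.9% and 47.5%. With 2 libraries a group, these shares were not tested. INF2 went from 11.7% and 12.8% to 6.71% and 6.13%, and DAAM1 from 11.6% and 12.1% to 9.18% and 7.40%. The smallest shares were those of FHOD3 in MET+ cells, at 0.286% and 0.106%, and of DIAPH2 in MET-KO cells, at 0.832% and 1.05%.

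**Figure D2:**
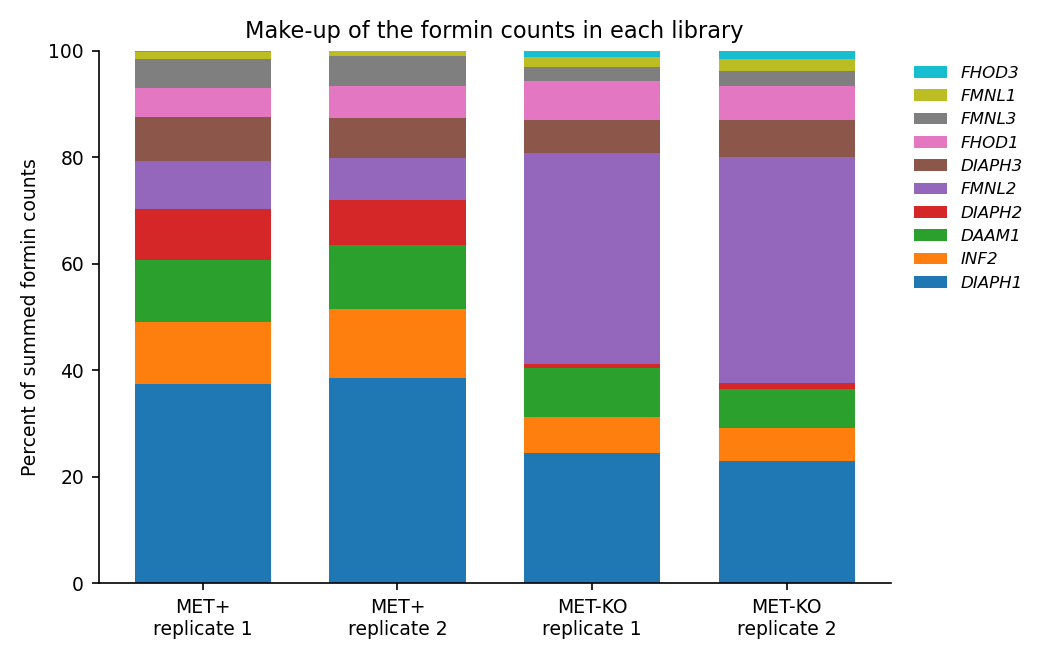
Percent of the summed counts of the 10 formins held by each formin, 1 stacked bar per library. FMNL2 takes 8.99% and 7.79% of the MET+ bars and 39.5% and 42.5% of the MET-KO bars, while DIAPH1 takes 37.5% and 38.6% against 24.5% and 23.0%.

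Several formins lie on chromosomes whose genes were lower as a whole in MET-KO cells. The median log2 fold change of all tested genes was -0.43 on chromosome 5 (DIAPH1), -0.32 on chromosome 12 (FMNL3) and -0.51 on chromosome 14 (DAAM1 and INF2). Of the 5 formins called lower, 4 stand on these chromosomes, which held 617, 762 and 479 of the 13801 tested genes. The share of all genes called lower that lie there was not taken, so 4 of 5 cannot be called particular to formins. DAAM1 lay -0.08 from its chromosome's median, at percentile 43.4 of the tested genes there. DIAPH1 lay at percentile 30.1, INF2 at percentile 22.3 and FMNL3 at percentile 13.8 of their own chromosomes. Among the genes within 5 Mb the pattern was the same. DIAPH1 had 65 such tested genes, 40 called lower and 7 higher, and lay -0.28 from their median. INF2 had 66, 44 called lower and 6 higher, and lay -0.25 from theirs. DAAM1 lay -0.19 from the median of its 51 neighbours, and FMNL3 lay -0.64 from that of its 119. The part of these regional shifts in the 4 decreases was not tested.

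DIAPH2, FMNL2 and FHOD3 lie on chromosomes with medians near 0. On chromosome X the median log2 fold change was -0.01, and DIAPH2 stood at percentile 3.01 of the 399 tested genes. Within 5 Mb of DIAPH2, 13 genes were tested, 1 of which was called higher and 1 lower. On chromosome 2 the median was 0.03, and FMNL2 stood at percentile 93.8. It lay 1.95 above the median of the 20 tested genes within 5 Mb. FHOD3 lay 2.76 above the median of its 30 neighbours on chromosome 18. FMNL1 stood at percentile 82.9 of chromosome 17, 0.66 above the 184 genes around it.

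**Figure D3:**
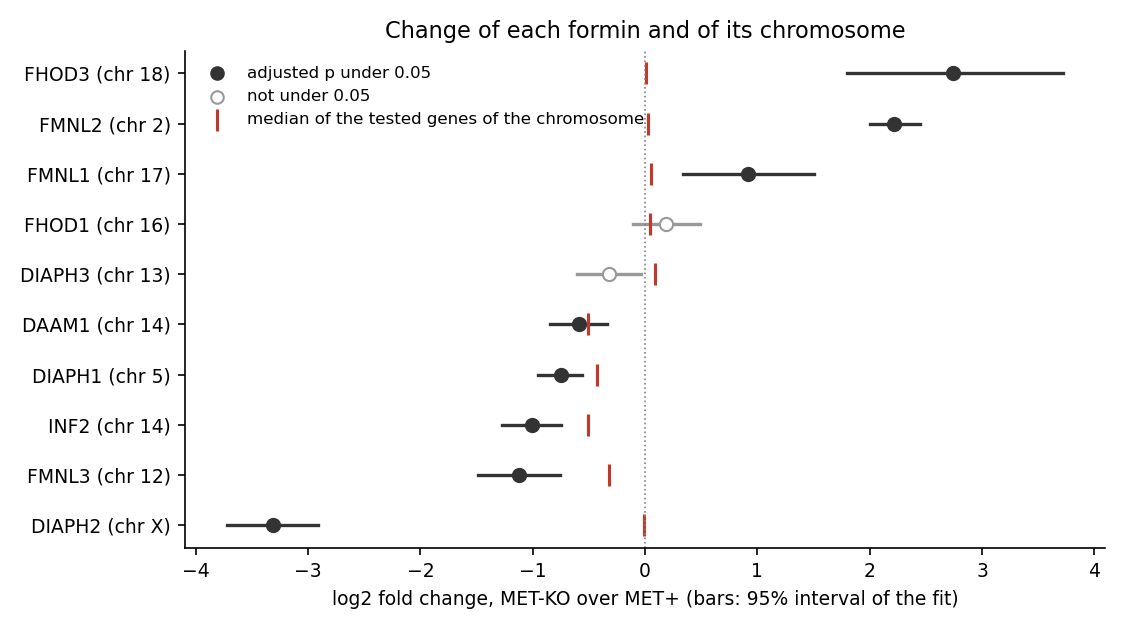
Log2 fold change (MET-KO over MET+) of each formin with the 95% interval of the fit (bars), filled where the adjusted p was under 0.05, and the median of all tested genes of its chromosome (red mark). DIAPH2, FMNL2 and FHOD3 stand far from marks close to 0, while the marks of DAAM1, DIAPH1, INF2 and FMNL3 lie between -0.51 and -0.32.

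The promoters of DIAPH2, with the largest fall in folds, and FMNL2, with the largest gain in counts, are shown because both changes stand out from the genes around them. They come from RefSeq on GRCh38.p14, which lists 15 promoters for the 10 formins. Each line gives the 250 bases before the RefSeq start, 5′ to 3′, with the last 40 before the start in capitals. The FMNL2 stretch is chr2:152334924-152335173 (plus strand) and the DIAPH2 stretch is chrX:96684592-96684841 (plus strand). GENCODE begins DIAPH2 further upstream, inside the stretch shown.
FMNL2: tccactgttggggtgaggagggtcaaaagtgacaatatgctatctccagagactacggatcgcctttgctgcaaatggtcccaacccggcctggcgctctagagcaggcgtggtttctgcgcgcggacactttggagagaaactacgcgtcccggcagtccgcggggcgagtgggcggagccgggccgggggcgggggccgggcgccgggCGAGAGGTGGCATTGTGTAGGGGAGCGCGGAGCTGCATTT
DIAPH2: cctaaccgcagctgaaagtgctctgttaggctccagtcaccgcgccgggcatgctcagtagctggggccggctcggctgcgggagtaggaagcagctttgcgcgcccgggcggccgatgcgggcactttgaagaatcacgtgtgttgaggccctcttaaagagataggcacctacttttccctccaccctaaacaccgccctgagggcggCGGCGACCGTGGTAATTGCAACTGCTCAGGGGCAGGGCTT
Both promoters held more CG dinucleotides than the median promoter, at percentiles 71.8 (FMNL2) and 68 (DIAPH2) of all promoters. Over the 300 bases that reach 50 past the start, FMNL2 had 27 CG dinucleotides and 66.3% G and C, and DIAPH2 had 25 and 64.3%. The median of all 35116 promoters in the table was 14 CG dinucleotides and 58.7%. Across the 10 formins, the promoter nearest the annotated start held between 22 (DAAM1) and 45 (FMNL3), so this was not particular to FMNL2 and DIAPH2.

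SRF with its MRTF partners, and TEAD factors with YAP1, are known to switch on actin genes when filaments form or cells spread. Both strands of the 15 formin promoters were searched for the boxes these factors bind. The CArG box of SRF, CC followed by 6 bases that are each A or T and then GG, was in 0 of the 15, against 1.29% of all promoters of this length. The TEAD box CATTCC, or GGAATG on the other strand, was in 2 of the 15, against 14% of all promoters. The 2 stretches follow, with the box in capitals. They are an alternative promoter of DIAPH3 (chr13:60013198-60013237, minus strand), with the box 31 bases before the start, and one of the 4 promoters of INF2 (chr14:104688105-104688144, plus strand), with the box 170 bases before the start.
DIAPH3 alternative promoter: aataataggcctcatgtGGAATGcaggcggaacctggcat
INF2 alternative promoter: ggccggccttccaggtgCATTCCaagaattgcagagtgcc
DIAPH3 was not called and INF2 was called lower in MET-KO cells, and the promoter of FMNL2 held neither box. Whether SRF or TEAD factors act on these genes was not tested. A missing box says only that these letters are not in this window.

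Among 17 partners and regulators of formins, all tested, 4 were called higher and 8 lower, against 27.2% and 26.9% of all tested genes. The median log2 fold change of the 17 was -0.07. Profilins deliver actin to the FH1 domain of formins. PFN1 fell from 414 ± 46.7 to 306 ± 42.0 CPM (SD, n = 2 each), which is -0.44 on the log2 scale (edgeR's quasi-likelihood test, Benjamini-Hochberg adjusted p = 0.000371). PFN2 rose from 89.1 ± 0.997 to 235 ± 4.43 CPM (SD, n = 2 each), which is 1.40 on the log2 scale (adjusted p = 1.37e-14, the same edgeR test). The libraries thus held 4.24 and 5.06 PFN1 counts per PFN2 count in MET+ cells and 1.45 and 1.2 in MET-KO cells. SRGAP2, which binds FMNL1 and limits its filament severing, rose from 11.9 to 44.2 CPM. CAP2, of the cyclase-associated proteins that work with actin to hold INF2 inactive, rose from 2.02 to 12.6 CPM. DVL1, a Dishevelled that binds DAAM1, fell from 116 to 74.7 CPM. DAAM1 was also lower, at -0.08 from the median of chromosome 14, and a link between the falls was not tested.

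Of the perinuclear anchors of actin, 7 of 8 genes were tested, and 2 were called higher and 3 lower. With library totals only, DESeq2's Wald test, 10 counts in every library or a replicate block, 2 anchors were called lower. Without a filter, 3 were called higher and 2 lower. Over all tested genes, 27.2% were called higher and 26.9% lower. The median log2 fold change of the anchors was -0.21. SYNE2, to whose product FHOD1 binds, fell from 58.7 ± 1.48 to 23.3 ± 6.22 CPM (SD, n = 2 each), while FHOD1 itself was not called. SYNE3 fell from 28.9 to 8.91 CPM. SYNE2 and SYNE3 lie on chromosome 14, at -0.81 and -1.18 from its median. SUN2 and SUN1 rose, from 29.8 to 64.1 CPM and from 59.8 to 84.3 CPM. SUN1 lies on chromosome 7, whose genes were higher as a whole with a median log2 fold change of 0.50, and stood at percentile 49.5 there. Of MRTF, SRF and their actin targets, 9 of 11 were tested, 3 were called higher and 2 lower, and the median was -0.00. Without MET+ replicate 1, 1 of this list was called lower. Monomeric actin, which formins use up, holds the MRTF proteins in the cytoplasm. ACTB, ACTA2 and TAGLN rose, with log2 fold changes of 0.61, 1.55 and 2.25, and ACTG1, the most abundant actin transcript here, fell from 5656 to 3658 CPM. ACTB also lies on chromosome 7, at percentile 55.9 of its tested genes.

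The other actin nucleators differed from one another as well. The ARP2/3 complex makes branched networks and competes with formins for actin. All 10 of its genes were tested, and 5 were called higher and 2 lower, against 27.2% and 26.9% of all tested genes. The median of the 10 was 0.23 on the log2 scale. When MET+ replicate 2 was left out, 3 were called higher and 1 lower, and without MET-KO replicate 2, 1 was called lower. ACTR3B and ARPC1A rose by 1.13 and 0.65 on the log2 scale, ACTR3 by 0.47, and ARPC3 fell by 0.62. Of the 5 called higher, 3 (ACTR3B, ARPC1A and ARPC1B) lie on chromosome 7, at 0.63, 0.15 and 0.02 above its median, and the part of that shift was not tested. Of the Ena/VASP and WH2 proteins, which also extend unbranched filaments, 4 of 7 genes were tested, 1 was called higher and 2 lower. VASP fell from 147 to 59.8 CPM, COBLL1 fell from 21.8 to 12.1 CPM and ENAH rose from 52.1 to 72.6 CPM. In each of these lists the genes spread on both sides of 0, as the formins did. The medians of 3 lists changed sign with the processing, so no direction is given for them. Scaling by library totals only put the partners at 0.03 and the MRTF and SRF list at 0.10, and DESeq2's Wald test, which also takes in genes with few counts, put the MRTF and SRF list at 0.24 and the Ena/VASP and WH2 list at 0.09. With no filter the Ena/VASP and WH2 median was 0.08.

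**Figure D4:**
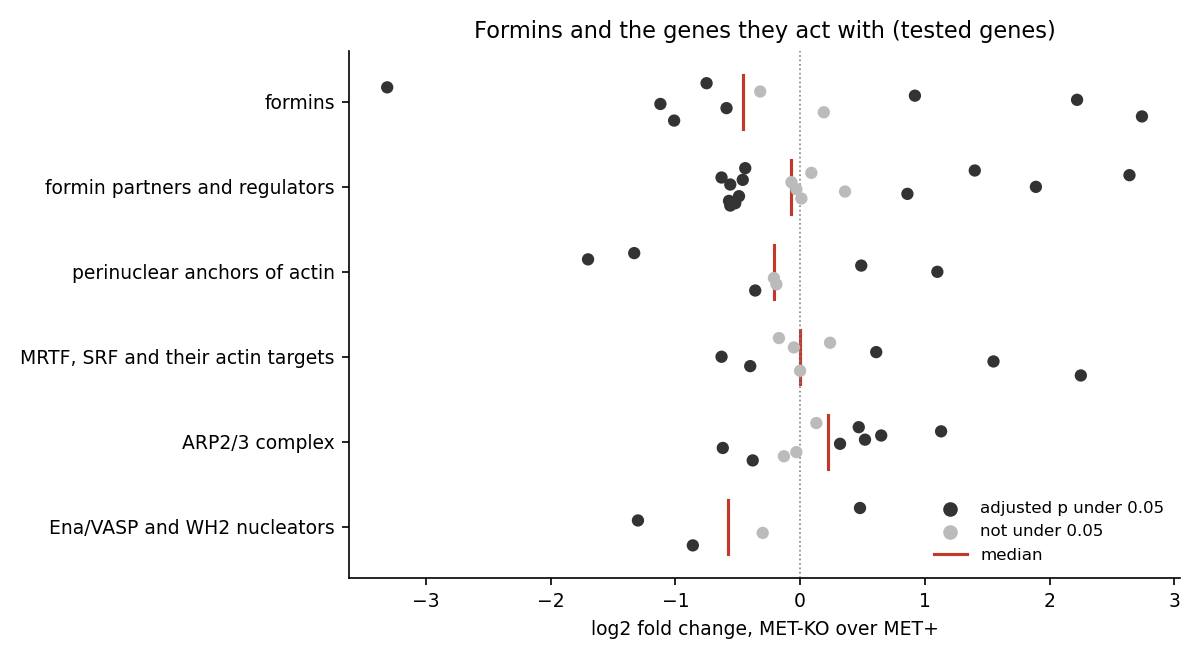
Log2 fold change (MET-KO over MET+) of each tested gene of the formins and of the lists of genes that act with them, dark where the adjusted p was under 0.05 and grey where not, with the median of each list as a red line. Genes of every list lie on both sides of 0, with medians of -0.46 for the formins and between -0.58 and 0.23 for the other lists. The medians of the partners, the MRTF and SRF list and the Ena/VASP and WH2 list changed sign under other processing.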

How the data were processed

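The authors deposited, for each library, whole-number read counts per gene without normalization. Per the labels and the submitters' processing notes, libraries were made with the QuantSeq 3′ mRNA kit (FWD), and cutadapt 1.16, STAR 2.5.4a, featureCounts 1.6.2 and DESeq2 1.18.1 are listed with the build GRCh38. The annotation release and strand setting are not given in the sources used here. Of the 58825 gene IDs, 58552 were found in GENCODE 29, which gave names and positions. The 99 spike-in rows held 0 counts and were left out.

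Groups came from the labels. Counts of 2 MET+ and 2 MET-KO libraries were compared in R 4.3.3 with edgeR 4.0.16 (filterByExpr, TMM, condition only, quasi-likelihood test, Benjamini-Hochberg adjustment over 13801 genes, threshold 0.05). CPM includes the TMM factors, 0.949 to 1.06. Replicates differed by more than counting noise (chi-square per degree of freedom 5.45 and 4.86), and p-values measure the spread between these samples. The fit was also run on simulated counts with few changed genes and the same spread for every gene. That setting is simpler than these data, so it checks the code and not the calls given here. Wilson intervals and limits for 0 counts cover counting error only, while intervals of the fit include the spread between replicates. Copies made by PCR were not separated, so the Wilson intervals and limits may be too narrow even for counting error. Alternatives were DESeq2 size factors, library totals only, the Wald test of DESeq2 1.42.0, a filter of 10 counts per library or none, a replicate block, a log2 fold change of at least 1, and leaving out each replicate. Shares were also taken over all 14 human formins. The formins and gene lists were chosen with earlier results of these data known. All 10 formins are named, and from each list up to 4 tested genes with the smallest adjusted p, besides PFN1 and SYNE2, which were named whatever their values. One further list is not reported here. Protein sequences were not used here.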

Additional observations from a re-analysis of the deposited data

How the results depend on the processing

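With a log2 fold change of at least 1 also required, 3 formins were called lower in place of 5, without DIAPH1 and DAAM1, and FMNL1 was no longer called higher. The median log2 fold change of the formins, -0.46, was -0.36 with library totals only, which also moved the median of all tested genes to 0.11 and their calls from 3755 higher and 3712 lower to 4361 and 3000. It was -0.56 with at least 10 counts in every library, where FHOD3 drops out, and -0.47 to -0.46 with single replicates left out. With the replicate number as a block (replicate block), there were 3 higher and 5 lower formins, median -0.46. Same-numbered libraries showed no shared shift, since their deviations from the group means correlated at -0.0508 over 13801 genes. This cannot tell whether same-numbered cultures were grown or prepared together. No formin changed sign under any alternative. Where an adjusted p of 0.05 was the only threshold, FMNL1 and DIAPH3 changed their call, as given with their values, and no other tested formin did. Over the alternatives the log2 fold change lay between 2.12 and 2.33 for FMNL2, -3.54 and -3.12 for DIAPH2, -1.24 and -1.01 for FMNL3, -1.08 and -0.90 for INF2, -0.79 and -0.65 for DIAPH1, and -0.71 and -0.49 for DAAM1. Counts as low as 4 limit the size of the FHOD3 difference.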
